A study of Rattus norvegicus with 20 samples.

Results

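The circadian clock transcripts Per1, Per2, Per3, Cry1, Cry2, Arntl (listed as Bmal1), Clock, Nr1d1 and Dbp, together with Noct (formerly Ccrn4l), were examined in blood cells of LEW and WKY rats. These genes were chosen by name, and each of the 10 had exactly 1 probe set with a single annotated symbol, so that 10 of the 28826 transcripts on the array are described. RNA from 20 male rats was hybridised to Affymetrix Rat Gene ST arrays, 1 array per rat, in 4 groups of 5. LEW/Crl and WKY/NCrl rats, 2 inbred strains, received either STD, a chow diet, or CAF, a cafeteria diet rich in energy, for 7 weeks and were 15 weeks old and fasted for 9 h when blood was taken. The question was how strain and diet shape the transcriptome of circulating monocytes. The labels call the cells PBMCs, whereas the methods describe cells that had adhered to plastic in a short culture, and transcripts of several blood cell types were measured. All values are log2 signals as deposited, so that a difference of 1 is a doubling.

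The mammalian clock is a transcriptional feedback loop that runs in nearly every cell, leukocytes included. Arntl and Clock encode the activators, which bind E-boxes and drive the Per and Cry genes, whose products return to the nucleus and repress the activators. Nr1d1 (REV-ERBα) is a nuclear receptor that represses Arntl through response elements in its promoter, Dbp acts on D-box elements of output genes, and Noct (nocturnin) is an exonuclease family protein related to deadenylases that is rhythmic in many tissues and is also induced quickly by stimuli. Because these transcripts oscillate, each array gives their level at one moment of the cycle, and the hour at which each rat was bled is not given in the sources used here.

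The promoter sequence shows which of the letters of these control elements lie close to the transcription start. RefSeq windows of the GRCr8 build, from 250 bases before to 50 bases after a start site, were found for 9 of the 10 genes, with 11 windows in all, and Cry1 had none. Both strands were searched for the E-box CACGTG, the related E-prime box CACGTT, the D-box TTATGTAA, the nuclear receptor half-site AGGTCA and the cAMP response element TGACGTCA. The stretches below are printed 5′ to 3′ on the strand of the gene, with the matching letters in capitals (AACGTG is CACGTT read from the other strand).
Per2, E-prime box, minus strand, chr9:99497038-99497067: aacgcgcgcggtCACGTTttccactatgtg
Per2, D-box, minus strand, chr9:99497167-99497196: ccatgtgcgtcTTATGTAAagagagcgacg
Cry2, E-prime box, minus strand, chr3:98860632-98860661: acacatggtgggAACGTGagggggcggggc
Arntl, nuclear receptor half-site, plus strand, chr1:176766301-176766327: aaggcagaaagtAGGTCAgggacggag
Nr1d1, E-box, minus strand, chr10:84229628-84229657: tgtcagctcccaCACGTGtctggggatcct
Nr1d1, E-prime box, minus strand, chr10:84231969-84231998: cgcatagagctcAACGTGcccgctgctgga
The stretches of the Per2 E-prime box, of Arntl and of the Nr1d1 E-box lie within the annotated span of the gene, and the others lie upstream of it. The windows of Per1, Per3, Clock, Dbp and Noct held none of these letters, nor did any of the 11 windows hold the cAMP response element. Of all 33469 rat windows of the same length, 6.42% held the E-box, 4.83% the E-prime box, 0.893% the D-box, 16.2% the nuclear receptor half-site and 1.83% the cAMP response element. A match is a description of these letters only, not evidence of a bound site.

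The 10 transcripts had mean signals between the percentiles 61.2 (Per3) and 92.6 (Per1) of all transcripts. The dimmest were Per2, Per3 and Nr1d1, with group means from 7.51 to 7.91. The arrays were alike in overall signal, with medians of 6.83 to 6.90. A list of 14 measured heat shock and cochaperone genes set 4 arrays apart, LEW rats 2 and 3 on STD, LEW rat 2 on CAF and WKY rat 1 on STD, with list means of 10.97 to 11.56 against 10.17 to 10.46 in the other 16. A strain difference printed below for 1 of the 10 genes is given both ways if it moves by over 1.5 times or changes its call without these 4 arrays. Blood cell markers differed between the strains as well. Averaged over both diets, 10 of 14 neutrophil markers and 9 of 10 NK cell markers were higher in WKY rats, while 6 of 14 monocyte, 9 of 17 T cell, 2 of 8 B cell, 4 of 6 platelet and 4 of 11 erythroid markers were lower. In the opposite direction stood no neutrophil, B cell or platelet marker and 1 marker each of the NK, monocyte, T cell and erythroid lists. Among all transcripts, 8.74% were called higher and 8.42% lower in WKY rats in the same comparison. The mean of the neutrophil list ran from 7.89 to 9.20 across the 10 LEW rats and from 8.90 to 10.22 across the 10 WKY rats, and that of the NK list from 9.28 to 9.88 and from 10.14 to 10.69. The mean of the monocyte list ran from 10.79 to 11.08 in LEW and from 10.27 to 10.94 in WKY rats. The part of these cell types in the differences below was not tested, and in a mixed sample fewer cells of a type and less RNA per cell cannot be told apart.

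**Figure D1:**
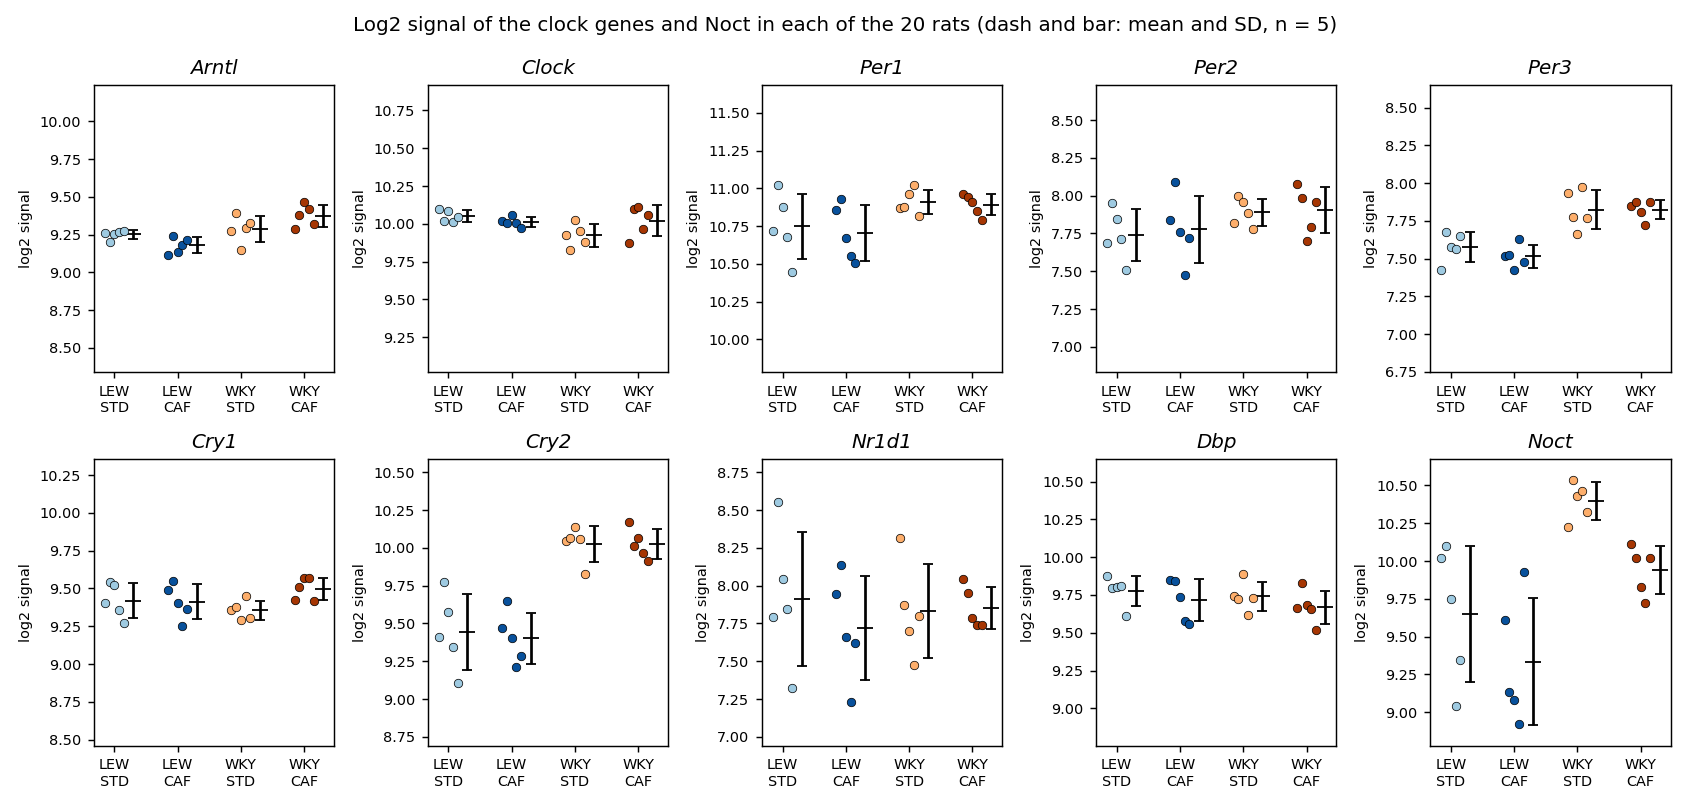
Log2 signal (vertical axis, each panel with its own range of equal height) of the 10 genes in each of the 20 rats by group (horizontal axis), with the mean and SD of the 5 rats beside the points. Cry2, Per3 and Noct lie higher in WKY rats, and the 5 Noct values of WKY rats on STD, 10.22 to 10.54, lie above all other Noct values.

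On CAF, WKY rats had higher levels of Cry2, Per3 and Arntl than LEW rats, and on STD of Cry2, Per3 and Noct. Averaged over both diets, the 4 transcripts Cry2, Noct, Per3 and Arntl were higher in WKY rats, none of the 10 was lower, and Per1, Per2, Cry1, Clock, Nr1d1 and Dbp did not pass the test (limma, adjusted p under 0.05 over all transcripts). For comparison, 8.74% of all transcripts were called higher and 8.42% lower in WKY rats in the mean of both diets. The corresponding shares were 4.24% and 3.34% on CAF, where 3 of the 10 were called higher and 0 lower, and 5.88% and 5.38% on STD, again with 3 higher and 0 lower. Without the 4 arrays of high heat shock signal, 3 were called on CAF, 4 on STD and 5 over both diets. Of all 28826 transcripts, 2339, 3024 and 5107 were then called in either direction. Over both diets Per1 and Per2 were gained and Arntl was lost. The median difference of the 10 over both diets was 0.13, against -0.01 for all transcripts.

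Cry2, which encodes a cryptochrome that represses the activators, had the smallest p of the 10 in each strain comparison. In LEW rats on STD its log2 signal was 9.41, 9.77, 9.58, 9.35 and 9.11, and in WKY rats on STD 10.05, 10.07, 10.14, 10.06 and 9.83. On CAF the LEW rats had 9.47, 9.65, 9.40, 9.21 and 9.28, and the WKY rats 10.17, 10.01, 10.06, 9.97 and 9.91. Every WKY rat lay above every LEW rat on the same diet, and above every LEW rat on the other diet too. The difference was 0.58 on STD (SE 0.10, adjusted p = 0.000468) and 0.62 on CAF (SE 0.10, a fold of 1.54, adjusted p = 0.00032). Without the 4 arrays of high heat shock signal it was 0.73 and 0.68.

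Per3, a period gene often counted as an output of the loop, differed by less and passed on both diets. The LEW rats had 7.42, 7.68, 7.58, 7.56 and 7.65 on STD and 7.52, 7.52, 7.42, 7.63 and 7.48 on CAF. The WKY rats had 7.93, 7.77, 7.66, 7.98 and 7.77 on STD and 7.85, 7.87, 7.81, 7.72 and 7.87 on CAF. On STD the ranges met, since WKY rat 3 at 7.66 lay below LEW rat 2 at 7.68, and on CAF they did not overlap. The difference was 0.24 on STD (SE 0.06, adjusted p = 0.0114) and 0.31 on CAF (SE 0.06, adjusted p = 0.00227), 1.18-fold and 1.24-fold. With only the STD arrays in the fit, the first of these had an adjusted p of 0.0587.

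Per1 and Per2, period genes that also respond acutely to glucocorticoids and cAMP, did not pass the test on either diet. Per1 was 10.72, 11.02, 10.87, 10.68 and 10.44 in LEW rats on STD and 10.86, 10.93, 10.67, 10.55 and 10.51 on CAF. In WKY rats it was 10.87, 10.88, 10.96, 11.02 and 10.82 on STD and 10.96, 10.94, 10.91, 10.85 and 10.79 on CAF. The LEW rats spread over a wider range that reached as high as that of the WKY rats and lower. The Per1 difference averaged over both diets was 0.17 (SE 0.06, adjusted p = 0.0719), and without the 4 arrays of high heat shock signal, 3 of them from LEW rats, it was 0.27 (adjusted p = 0.00275). On STD alone it was 0.16 (adjusted p = 0.312), and 0.31 (adjusted p = 0.0309) without them. For Per2 the group means were 7.74 and 7.78 in LEW and 7.89 and 7.90 in WKY rats on STD and CAF, with SDs from 0.09 to 0.22 (n = 5). Its difference over both diets was 0.14 (SE 0.07, adjusted p = 0.206), and 0.24 (adjusted p = 0.0167) without those 4 arrays. On STD and CAF alone the Per2 difference was 0.15 and 0.13, and 0.27 and 0.21 without them. Cry1, the other cryptochrome, had group means of 9.42 and 9.41 in LEW rats, and its strain difference over both diets was 0.01 with a 95% interval of -0.08 to 0.10, and 0.07 (adjusted p = 0.363) without those arrays.

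Of the activators, Arntl was called on CAF only. Its signal was 9.12, 9.24, 9.13, 9.18 and 9.22 in LEW rats on CAF and 9.28, 9.38, 9.46, 9.42 and 9.32 in WKY rats on CAF, without overlap. On STD it was 9.26, 9.20, 9.26, 9.26 and 9.27 in LEW and 9.28, 9.39, 9.15, 9.30 and 9.32 in WKY rats, with WKY rat 3 the lowest of all 10. The strain difference was 0.20 on CAF (SE 0.05, 1.15-fold, adjusted p = 0.0105) and 0.04 on STD (SE 0.05, adjusted p = 0.711). The diet by strain interaction, which tests whether these differ, did not pass after adjustment (0.16, SE 0.07, unadjusted p = 0.0253, adjusted p = 0.817). Averaged over both diets the Arntl difference was 0.12 (adjusted p = 0.0173), and its adjusted p was 0.0514 without the 4 arrays of high heat shock signal. Clock, the partner of Arntl, varied little, from 9.83 to 10.11 over the 20 rats. On STD it was 10.10, 10.02, 10.08, 10.01 and 10.04 in LEW and 9.93, 9.83, 10.03, 9.95 and 9.88 in WKY rats, a difference of -0.13 (SE 0.05, adjusted p = 0.0927). On CAF the Clock difference was 0.01 (95% interval -0.09 to 0.11).

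Nr1d1, the repressor of Arntl, varied more between rats of a group than between groups. It was 7.79, 8.55, 8.04, 7.85 and 7.32 in LEW rats on STD, 7.95, 8.14, 7.66, 7.23 and 7.62 in LEW rats on CAF, 8.32, 7.87, 7.70, 7.47 and 7.80 in WKY rats on STD and 8.05, 7.95, 7.78, 7.74 and 7.74 in WKY rats on CAF. In 3 groups the highest value belonged to an array of high heat shock signal, LEW rats 2 on both diets and WKY rat 1 on STD. The strain difference in Nr1d1 over both diets was 0.03, with a wide 95% interval of -0.25 to 0.31, and 0.15 (adjusted p = 0.384) without the 4 arrays of high heat shock signal. On CAF alone it was 0.13, and 0.24 without them. Dbp, the output regulator, lay between 9.52 and 9.89 in all rats, and its strain difference over both diets was -0.04 (95% interval -0.15 to 0.06), and -0.02 without the 4 arrays of high heat shock signal.

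Noct had the widest range of the 10, from 8.92 to 10.54, and also the largest strain difference on STD. The LEW rats had 10.02, 10.10, 9.75, 9.04 and 9.34 on STD and 9.61, 9.13, 9.08, 8.92 and 9.93 on CAF. The WKY rats had 10.22, 10.54, 10.43, 10.47 and 10.33 on STD and 10.11, 10.02, 9.83, 9.72 and 10.02 on CAF. On STD no LEW rat reached the lowest WKY rat, whereas on CAF LEW rat 5 at 9.93 exceeded WKY rats 3 and 4. Within groups the LEW rats were the more variable, with SDs of 0.45 and 0.42 against 0.12 and 0.16 in WKY rats (n = 5). The strain difference was 0.75 on STD (SE 0.19, a fold of 1.68, adjusted p = 0.0117) and 0.68 over both diets (SE 0.13, adjusted p = 0.000928). Without the 4 arrays of high heat shock signal these were 0.97 and 0.77. On CAF it was 0.61 (SE 0.19, a fold of 1.52), and its adjusted p of 0.0535 missed the threshold narrowly, with values from 0.0108 to 0.148 when 1 array was left out. Counting transcripts whose 2 groups do not overlap, 3 of the 10 (Cry2, Per3 and Arntl) were higher in every WKY rat on CAF, where 7.8% of all transcripts had no overlap in either direction. On STD there were 2 (Cry2 and Noct), where 8.46% of all transcripts had no overlap.

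**Figure D2:**
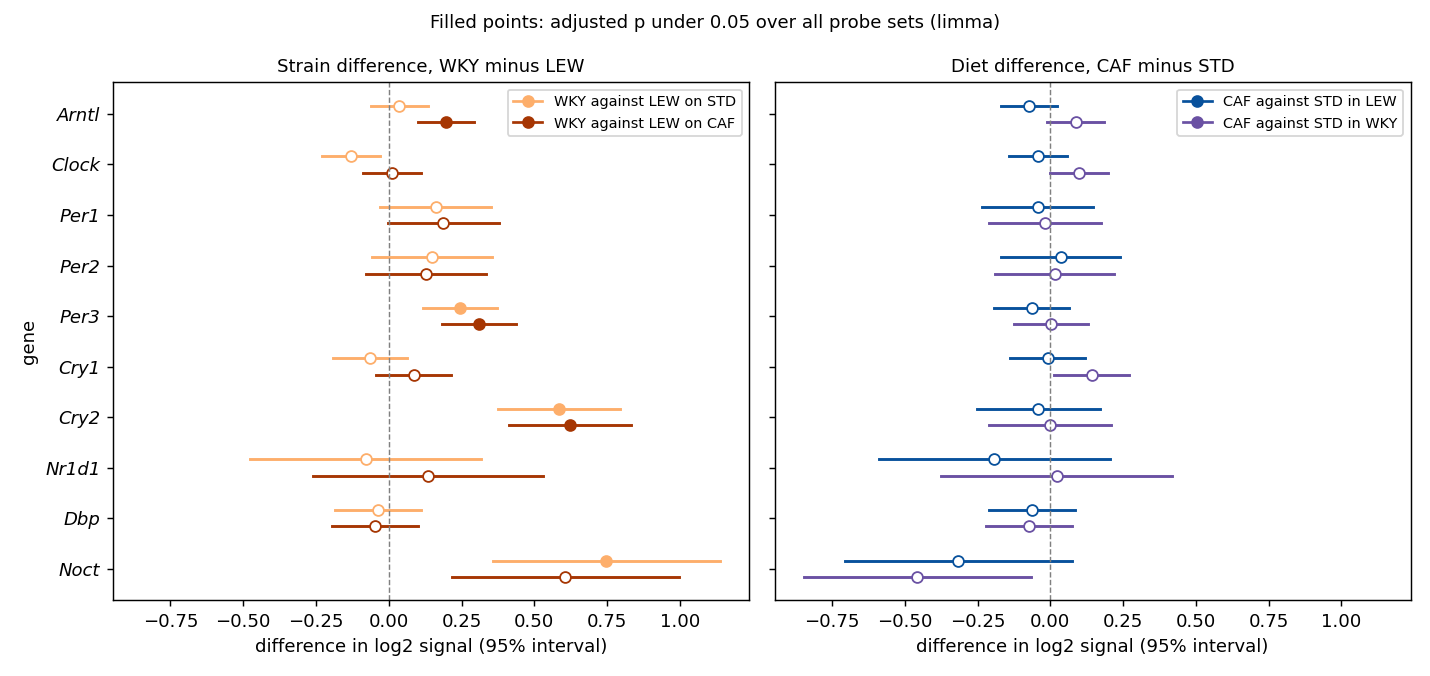
Difference in log2 signal (horizontal axis) with its 95% interval for each gene, WKY minus LEW on each diet (left) and CAF minus STD in each strain (right), with filled points where the adjusted p is under 0.05. Filled points stand for Cry2 and Per3 on both diets, Arntl on CAF and Noct on STD, all to the right of 0, and the diet panel holds none.

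For the diet, none of the 10 transcripts differed between CAF-fed and STD-fed rats of the same strain at an adjusted p under 0.05. The lowest Noct value of each strain belonged to a CAF-fed rat, but Noct did not pass the adjustment either. None of the marker and pathway lists used here held a gene called for the diet in either strain. In LEW rats limma called 0 of the 10, and 0% of all transcripts, with unadjusted p-values under 0.05 for 0 of the 10 and for 5.46% of all. In WKY rats it called 0 of the 10 and 0% of all transcripts, with unadjusted p-values under 0.05 for 2 of the 10 and for 8.81% of all. In the mean of both strains it again called 0 of the 10 and 0% of all, with unadjusted p-values under 0.05 for 1 of the 10 and for 8.26% of all. The differences, CAF minus STD, ranged from -0.32 to 0.04 in LEW rats and from -0.46 to 0.14 in WKY rats, and Noct was the lowest in each.

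Noct in WKY rats was the one transcript of the 10 whose diet groups did not overlap, with 9.72 to 10.11 on CAF and 10.22 to 10.54 on STD. Such separation was seen in 2.07% of all transcripts in WKY rats, and in 0.989% in LEW rats, where 0 of the 10 showed it. The Noct difference in WKY rats was -0.46 (95% interval -0.85 to -0.07, unadjusted p = 0.0242, adjusted p = 0.478). In LEW rats it was -0.32 (95% interval -0.71 to 0.07, adjusted p = 0.932), and -0.08 without the 4 arrays of high heat shock signal. Over both strains it was -0.39 (SE 0.13, unadjusted p = 0.00856, adjusted p = 0.458). These intervals and p-values rest on 1 spread shared by all 4 groups, not on that of the WKY rats alone. The Noct SDs were 0.45 and 0.42 in LEW and 0.12 and 0.16 in WKY rats on STD and CAF. The 20 immediate-early genes, some of which are induced by the same stimuli as Noct, had a median diet difference of -0.28 in WKY and -0.07 in LEW rats. Limma called 0 of them in either strain, and unadjusted p-values were under 0.05 for 10 of the 20 in WKY and 0 in LEW rats. Of the 14 monocyte markers, limma called 0 for the diet, with 7 at an unadjusted p under 0.05 in WKY and 1 in LEW rats. Their median diet difference was -0.24 in WKY and -0.03 in LEW rats. Among all transcripts, 8.81% in WKY and 5.46% in LEW rats had such an unadjusted p. The part of these genes and markers in the Noct values was not tested. The interaction for Noct was -0.14 with a 95% interval of -0.69 to 0.41, and -0.42 without those arrays.

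The other transcript at an unadjusted p under 0.05 in WKY rats was Cry1, with 9.35, 9.38, 9.29, 9.45 and 9.31 on STD and 9.42, 9.51, 9.57, 9.57 and 9.42 on CAF. The groups overlapped, since WKY rat 4 on STD exceeded rats 1 and 5 on CAF, and the difference was 0.14 (SE 0.06, unadjusted p = 0.032, adjusted p = 0.517). In LEW rats the Cry1 difference was -0.01 (95% interval -0.14 to 0.12). For the activators the CAF minus STD difference was 0.09 for Arntl and 0.10 for Clock in WKY rats and -0.07 and -0.04 in LEW rats, with adjusted p-values of 0.568 to 0.972. The diet by strain interaction called 0 of the 10 and 0% of all transcripts, and Arntl was the only 1 of the 10 at an unadjusted p under 0.05, against 5.95% of all transcripts.

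Within groups, several clock transcripts moved together from rat to rat. After the mean of each group was taken off, the 15 pairs among Per1, Per2, Cry1, Cry2, Nr1d1 and Dbp had Pearson coefficients from 0.46 to 0.93 over the 20 arrays, with a median of 0.71. The 6 pairs among Per3, Arntl, Clock and Noct ranged from -0.18 to 0.02, and the 24 pairs between both sets from -0.44 to 0.41. Both sets were formed after the values had been seen, so these ranges describe the data and carry no test. The closest pair was Per1 and Cry2 (Pearson 0.93, Spearman 0.92). Without the 4 arrays of high heat shock signal the pairs of the first set ranged from 0.18 to 0.85, with Per1 and Cry2 at 0.85 over 16 arrays. The points of a pair share an array and hence its RNA quality, cell composition and hour of collection.

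Single rats stood at the edge of their group for many of the 10 transcripts at once. LEW rat 2 on STD had the highest value of its group for 7 of the 10 transcripts, and LEW rat 5 on STD the lowest for 6. Among LEW rats on CAF, rat 2 was highest for 6 and rat 4 lowest for 5. Among WKY rats the shifts were smaller, with rat 1 on CAF highest for 5. LEW rats 2 on both diets were also the 2 arrays of the highest heat shock signal, 11.56 on STD and 11.26 on CAF, whereas LEW rats 4 and 5 were not among the 4 arrays set apart. The part of RNA handling or of the hour of collection in these shifts was not tested.

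**Figure D3:**
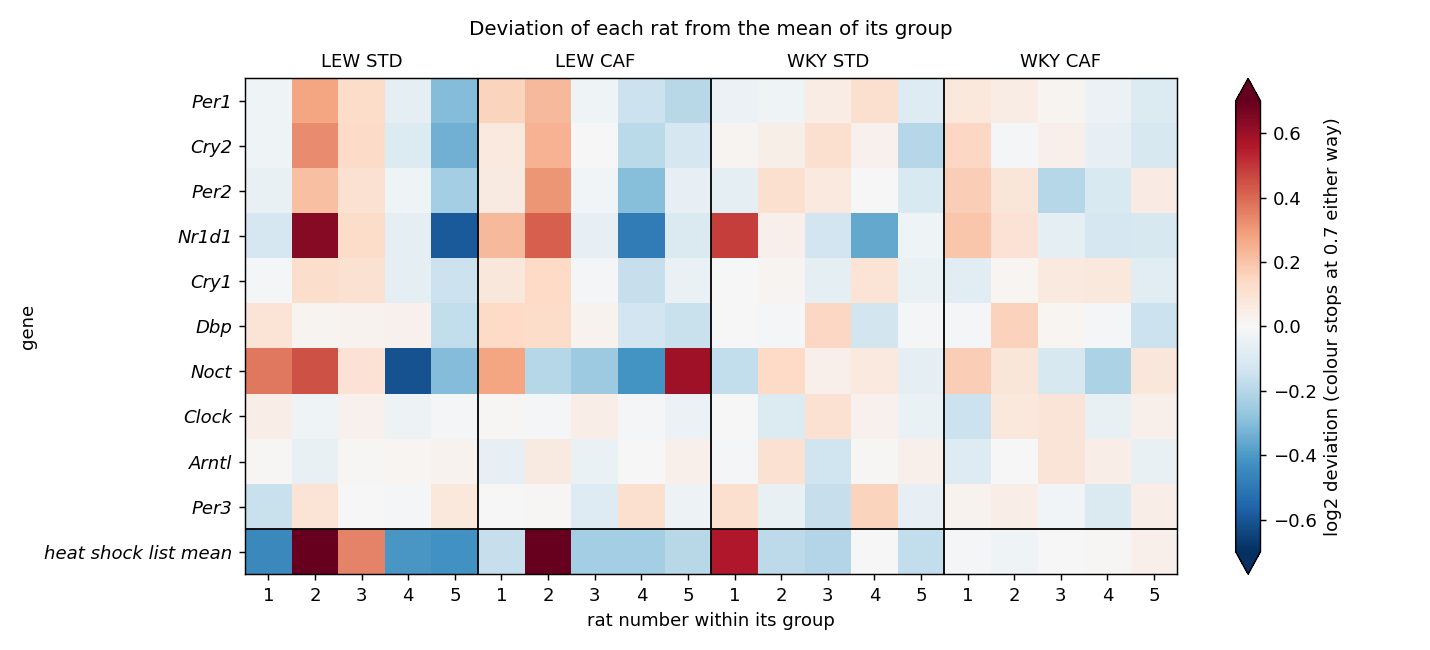
Log2 deviation of each rat (columns, numbered within its group) from the mean of its group for the 10 genes and for the mean of the heat shock list (rows), with red above and blue below the group mean. Per1, Cry2, Per2, Nr1d1 and Cry1 are red together in LEW rats 2 on both diets and blue together in LEW rat 5 on STD and LEW rat 4 on CAF.

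Further clock genes were also called only higher in WKY rats. Of 22 further clock genes listed, 15 had a probe set with a single symbol and are described here. Limma called 2 of the 15 higher in WKY rats on CAF, 4 on STD and 5 in the mean of both diets, and none lower. The shares of all transcripts called higher were 4.24%, 5.88% and 8.74%, and those called lower 3.34%, 5.38% and 8.42%. Nampt, the rate-limiting enzyme of NAD salvage, was higher by 0.61 (SE 0.06) in the mean of both diets and Bhlhe40 (DEC1), an E-box repressor of the clock, by 0.62 (SE 0.07). Nfil3 (E4BP4), which represses at D-boxes, was higher by 0.38 (SE 0.09) and Fbxw11, a subunit of a ubiquitin ligase for period proteins, by 0.18 (SE 0.04). The median difference of the 15 was 0.12, against -0.01 for all transcripts. For the diet limma called 0 of the 15 in either strain, with 0 at an unadjusted p under 0.05 in LEW and 2 in WKY rats. Such an unadjusted p was held by 5.46% of all transcripts in LEW and 8.81% in WKY rats.

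Among the deadenylases and their partners, to which Noct is related, limma called genes in both directions in the mean of both diets only. Of 14 measured genes, it called 0 on CAF, with 3 at an unadjusted p under 0.05, and on STD 1, with 11 at an unadjusted p under 0.05. The 1 called on STD was the mitochondrial deadenylase Pde12, at -0.26 (adjusted p = 0.00981). In the mean of both diets 1 was called higher and 3 lower, with 10 at an unadjusted p under 0.05. Among all transcripts, limma called 4.24% higher and 3.34% lower on CAF, 5.88% and 5.38% on STD, and 8.74% and 8.42% over both diets. The share of all transcripts at an unadjusted p under 0.05 was not counted for the strain comparisons. Tob1, an antiproliferative partner of the CCR4–NOT complex, was higher in WKY rats by 0.43 (SE 0.12). Cnot3, a subunit of that complex, and Angel1 and Angel2, relatives of Noct, were lower, at -0.26, -0.17 and -0.13. The median difference of the 14 was -0.14 on STD, -0.03 on CAF and -0.09 over both diets. For all transcripts it was -0.003, -0.01 and -0.01.

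Rapidly induced genes were, like Noct, mostly higher in WKY rats. Of 20 measured immediate-early genes, 8 were called higher in WKY rats on CAF, 15 on STD and 16 in the mean of both diets, and none lower. For comparison with this list and the next, 4.24% of all transcripts were called higher on CAF, 5.88% on STD and 8.74% over both diets. The shares called lower were 3.34%, 5.38% and 8.42%. The median of the 20 over both diets was 0.52, and Egr1 differed by 0.79, Nr4a2 by 0.76, Nr4a1 by 0.54 and Csrnp1 by 0.66. The mean of this list ran from 10.13 to 10.85 in LEW rats and from 10.64 to 11.17 in WKY rats. Per1 and Per2 also respond to glucocorticoids. Of 16 other glucocorticoid-induced genes, 7 were higher and 1 was lower in WKY rats over both diets. Sgk1 was higher by 0.92, Nfkbia by 0.44 and Cdkn1a by 0.59, while Tsc22d3 (GILZ) was lower, at -0.23. On CAF 2 of these 16 were higher and 0 lower, and on STD 4 were higher and 1 was lower. The part of cell activation in the Noct difference was not tested, nor that of glucocorticoids in the Per1 and Per2 values.

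The transcripts most like each called gene were sought among 15209 with a single symbol, over the 20 arrays after the group means were taken off. For Noct these were Cxcl2, a neutrophil-attracting chemokine (Pearson 0.91), Il1a, the cytokine interleukin-1α (0.89), and Gnb5, a G protein subunit (0.89). With the values as deposited they were Cxcl2 (0.93), Zc3h12c, a zinc finger protein related to regnase (0.92), and Plaur, the urokinase receptor (0.92). Over both diets Cxcl2 was 0.77 higher in WKY than in LEW rats (limma, adjusted p = 0.00112) and Il1a 1.24 higher (adjusted p = 0.000591). Gnb5 did not pass, at 0.07 (adjusted p = 0.719). LEW rats 4 on both diets, which had the lowest Noct values of their groups, also had the lowest Cxcl2 values of theirs, 11.13 on STD and 11.42 on CAF. For Cry2 the closest were Per1 (0.93), Paqr7 (0.90) and Tnfsf9 (0.89), and for Per3 they were Rpl22l1 (0.84), Cytip (0.83) and Zmym6 (0.81). For Arntl they were Or52z14 (0.76), Guca2a (0.75) and Or8b9 (0.73), lower than the best matches of the other called genes. These are the highest of many coefficients and describe these arrays only.

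**Figure D4:**
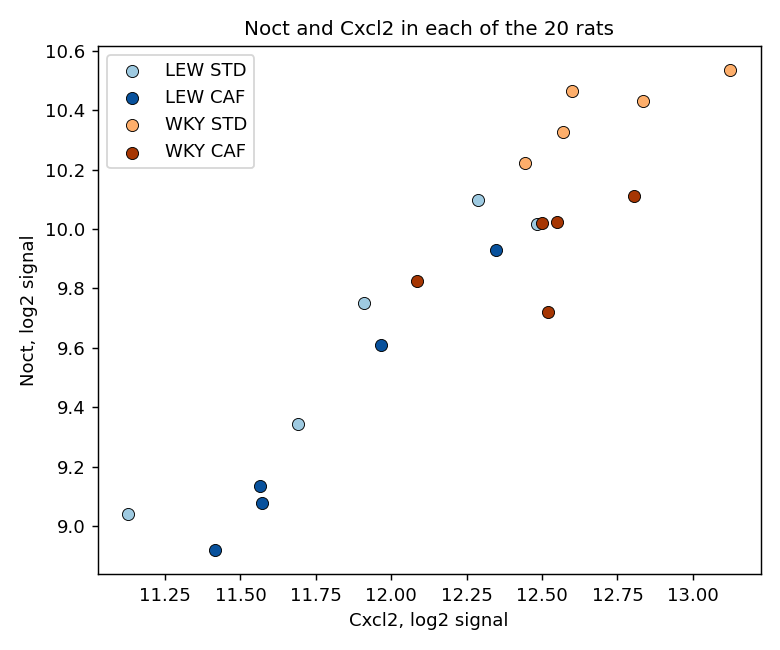
Log2 signal of Noct (vertical axis) against that of Cxcl2 (horizontal axis), 1 point per rat, coloured by group. Rats low in Noct are low in Cxcl2, from LEW rats 4 on both diets, at 9.04 and 8.92 for Noct and 11.13 and 11.42 for Cxcl2, to WKY rat 2 on STD at 10.54 and 13.12.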

How the data were processed

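RNA of 20 rats was measured on single-colour arrays, 1 per rat. Per probe set (called a transcript in the text), the authors deposited a log2 signal, normalised across arrays. The methods name RMA for this step and the submitters' notes name MAS5, with no version. The signals, 3.57 to 14.4, entered the fits unfiltered and unchanged, and no array duplicated another. The number of rats, and not a read depth, limits the precision. Groups came from the sample labels, with 5 separate rats each. A linear model with a mean for each group, and 1 spread shared by all 4 groups, was fitted in R 4.3.3 by limma 3.58.1. Its moderation used no trend (residual degrees of freedom 16, prior 3.67), and P-values were adjusted by Benjamini and Hochberg's method across the 28826 probe sets. The comparisons were the strains on CAF, on STD and over both diets, the diets in each strain and over both, and the interaction (the diet difference in WKY minus that in LEW rats). Gene names came from the platform annotation, updated through RefSeq. Every gene of the set was named, and of each further list at most the 4 of smallest p in the comparison described. The 10 genes and all lists were chosen with earlier results of these data known. The procedure was tested on simulated data. Alternatives were centring, a trend with robust moderation, only brighter probe sets, a replicate block, array weights, only the groups compared, each array left out and, chosen after the data were seen, 4 arrays of high heat shock signal left out. Whether sequence differences between the strains lie under the probes was not tested, since probe sequences were not used here.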

Additional observations from a re-analysis of the deposited data

Results flagged for a closer look

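Of the 40 combinations of gene and group, 2 held a rat that stood far from the other 4, and chance alone sets about 1 in 20 such groups apart. In LEW rats on STD the Arntl value of rat 2, 9.20, lay below the next lowest, 9.26, by a gap of 0.772 of the whole range of its group. That range was narrow, and the same rat had the highest heat shock signal of all arrays. In LEW rats on STD the Dbp value of rat 5, 9.61, lay below the next lowest, 9.80, by 0.719 of the range, and rat 5 was also the lowest of its group for Per1, Per2, Cry1, Cry2 and Nr1d1.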

How the results depend on the processing

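The numbers of the 10 genes called (3 on CAF, 3 on STD and 4 over both diets between the strains, and 0 for each diet comparison and the interaction) stayed within 1.5 times under every alternative run, which were 27 for the comparisons of 2 groups, 20 of them leaving out 1 array. A fit of only the groups compared does not exist for the comparisons over both diets or strains and the interaction. Of 1860 differences recomputed, 93 changed sign, with 0 among the 10 called ones, and the lowest unadjusted p of those that did was 0.303 as reported. Noct on CAF was called among only brighter probe sets (adjusted p = 0.0354), with array weights (0.0152) and without LEW STD rat 1, 2 or 4 or LEW CAF rat 1 or 5. Per1 over both diets was called without LEW rat 2 on STD (adjusted p = 0.0201) or on CAF and, without the 4 arrays of high heat shock signal, on STD as well (0.31, adjusted p = 0.0309). Clock on STD was called when each array was centred (adjusted p = 0.0325) and without WKY STD rat 3 (0.0498). Without the 4 arrays of high heat shock signal, Per2 over both diets was called (adjusted p = 0.0167). Calls were also lost. Arntl over both diets was not called without those 4 arrays (adjusted p = 0.0514), nor Per3 on STD with only the STD arrays in the fit (0.0587).

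The labels do not say whether rats with the same number in different groups share more than that number. The deviations of 30 such pairs correlated between -0.18 and 0.43 (median 0.06), with 9 over 0.1. The highest were LEW rats 5 on both diets, at 0.43, and LEW rats 2 on both diets, at 0.41. With the replicate block, the Noct difference on CAF remained 0.61 with an adjusted p of 0.0404, Per1 over both diets had 0.0258, and 1 of all transcripts was called for the diet in WKY rats, as it was without WKY CAF replicate 4, against 0 otherwise.

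The signs that turned belonged to values near 0. Without the 4 arrays of high heat shock signal, the strain difference on STD was 0.0116 for Cry1 and 0.0560 for Nr1d1, the diet difference of Cry1 in LEW rats was 0.0330, and that of Arntl over both strains was -0.0104. Cry1 between the strains over both diets was -0.00299 with centred arrays and -0.000231 with array weights, which gave -0.00290 for Arntl between the diets. With 1 array left out, Clock between the strains on CAF ranged from -0.0122 to 0.0476, Nr1d1 on STD from -0.226 to 0.0806, Cry1 over both diets from -0.00976 to 0.0276 and Nr1d1 over both diets from -0.0457 to 0.108. The diet difference of Cry1 in LEW rats ranged from -0.0467 to 0.0313, that of Arntl over both strains from -0.0104 to 0.0199 and the interaction of Noct from -0.253 to 0.0117. The cause was not tested. With 5 rats a group, differences smaller than the intervals given could not be seen.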
